A study of Homo sapiens with 8 samples.

Results

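The Notch set described here comprised 10 genes chosen by name, and all 10 had a row among the 20030 gene rows deposited for each library. They were the receptors *NOTCH1*, *NOTCH2* and *NOTCH3*, the ligands *JAG1*, *JAG2* and *DLL1*, the nuclear factors *RBPJ* and *MAML1*, and the target genes *HES1* and *HEY1*. RNA had been sequenced in 8 libraries of HCT-116, an established human colorectal cancer cell line, after transfection of small interfering RNAs (siRNAs). The control group (siNC) had 2 libraries with a non-targeting siRNA. The siHHEX group had 3 libraries with siRNAs against *HHEX*, a homeobox transcription factor, and the siYAP/TAZ group had 2 libraries with siRNAs against *YAP1* and *WWTR1*, which encode the transcriptional coactivators YAP and TAZ. A single library, siTEAD1/2/3/4, received 1 siRNA against *TEAD1*, *TEAD3* and *TEAD4* together and another against *TEAD2*, the DNA-binding partners of YAP and TAZ. The study's methods list 3 siRNAs against *HHEX* and 2 pairs against *YAP1* and *WWTR1* for the RNA-seq, without assigning them to libraries. If each library of these groups had its own siRNA or pair, the spread within the groups includes any difference between siRNAs. The labels do not say that the libraries came from separate cultures, and the p-values then measure only the spread between these libraries.

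Notch receptors are membrane proteins that bind ligands of the Jagged and Delta-like families on neighbouring cells. Binding leads to cleavage of the receptor by an ADAM protease and then by gamma-secretase, and the released intracellular domain enters the nucleus, where it joins the DNA-binding protein RBPJ and a Mastermind-like coactivator to switch on targets of the HES and HEY families. In the intestinal epithelium, Notch signalling is known for keeping progenitor cells in the absorptive lineage and for holding back the secretory lineage.

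Values were levels in FPKM, the fragments of each gene scaled to its transcript length and to the library's total, and their sum per library lay between 331663 (siYAP/TAZ 1) and 383423 (siHHEX 3). Depth in reads was unknown. An estimate from genes under 0.03 FPKM placed every library between 0.947 and 1.06 times the depth of siNC 1. Only values within 1.33-fold of siNC 1 entered that estimate, so it could not have shown a larger difference in depth. The epithelial origin of the cells was visible in 7 of 8 epithelial marker genes that reached 1 FPKM in at least 2 libraries, led by the keratin gene *KRT8* with a mean of 1438 FPKM over the 8 libraries. The summed epithelial level was 1978 and 2033 FPKM in the siYAP/TAZ libraries against 3375 and 3518 FPKM in siNC. It was 2718 FPKM in siTEAD1/2/3/4, also below both siNC libraries, and 3120, 3446 and 3661 FPKM in siHHEX. This sum was carried by the keratin genes *KRT8*, *KRT18* and *KRT19*, whose siYAP/TAZ means were 54.4%, 42.9% and 77.5% of siNC. *EPCAM* was at 90.7% of siNC, with both siYAP/TAZ libraries below both siNC libraries. *KRT20* was at 174% and above siNC in both libraries, whereas *CDX2* (107%) and *CDH1* (131%) overlapped siNC. The *CDH1* mean rests on siYAP/TAZ 1, with 15.7 and 8.76 FPKM next to 9.16 and 9.52 FPKM in siNC. The last marker, *VIL1*, the gene of the brush border protein villin, did not exceed 0.0335 FPKM. Of the fibroblast and mural markers 2 of 7 reached 1 FPKM in at least 2 libraries, with sums of 1.34 to 5.59 FPKM and *ACTA2* as the most abundant gene. Of the endothelial and blood cell markers only *CD68* did, with sums of 3.596 to 7.41 FPKM, and no other gene of that list exceeded 0.133 FPKM in any library. Both sums were at their highest in a siYAP/TAZ library, and their part in the changes below was not tested.

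The knockdown targets were checked first. The siNC libraries held *HHEX* at 8.60 and 9.06 FPKM, and those labelled siHHEX held it at 3.25, 3.54 and 1.85 FPKM, a difference of -1.37 in log2(FPKM + 1) (SE 0.217, limma, Benjamini-Hochberg adjusted p = 0.00540). In the libraries labelled siYAP/TAZ, *WWTR1* was at 2.64 and 2.58 FPKM against 6.80 and 6.72 FPKM in siNC (difference -1.10, limma adjusted p = 0.0156). *YAP1* was at 6.90 and 8.39 FPKM there against 20.2 and 19.7 FPKM in siNC, and its difference of -1.28 had a limma adjusted p of 0.0681. *YAP1* was also low in 2 of the 3 siHHEX libraries, at 5.77 FPKM in siHHEX 1 and 6.93 FPKM in siHHEX 3, whereas siHHEX 2 had 17.4 FPKM. In siTEAD1/2/3/4, *TEAD1* was at 48.4%, *TEAD2* at 72.04% and *TEAD4* at 26.7% of the siNC mean, but *TEAD3* was at 127% of it, so the label did not hold for that gene. siHHEX 2 therefore stood apart from the other siHHEX libraries in *YAP1*, and it does so again below in *RBPJ*.

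In the control cells mean levels ran from 0.112 to 22.8 FPKM. *JAG2* was highest at 22.8 ± 0.598 FPKM (SD, n = 2), followed by *MAML1* at 15.7 ± 1.11 FPKM. *NOTCH2* at 9.75 ± 0.980 FPKM and *RBPJ* at 9.49 ± 0.0569 FPKM came next, and their ranges overlapped. Below them lay *NOTCH1* at 5.93 ± 0.264, *HES1* at 5.11 ± 0.267, *JAG1* at 3.74 ± 0.190, *NOTCH3* at 1.84 ± 0.143, *DLL1* at 0.838 ± 0.0968 and *HEY1* at 0.112 ± 0.00992 FPKM, each apart from its neighbour in this order. FPKM is scaled by transcript length, but this ordering of levels between genes was not adjusted for GC content. The place of *NOTCH2* may also depend on reads shared with its partial copies, described below. In siHHEX the ranges of all neighbours from *NOTCH2* down to *HES1* overlapped, and in siYAP/TAZ *MAML1* and *JAG2* overlapped at the top, as did *NOTCH1*, *NOTCH3*, *JAG1* and *HES1* in turn. *HEY1* stayed between 0.0205 and 0.273 FPKM in every library and missed the filter of at least 1 FPKM in at least 2 libraries, so that 9 of the 10 genes were tested, among 10677 genes in all.

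**Figure D1:**
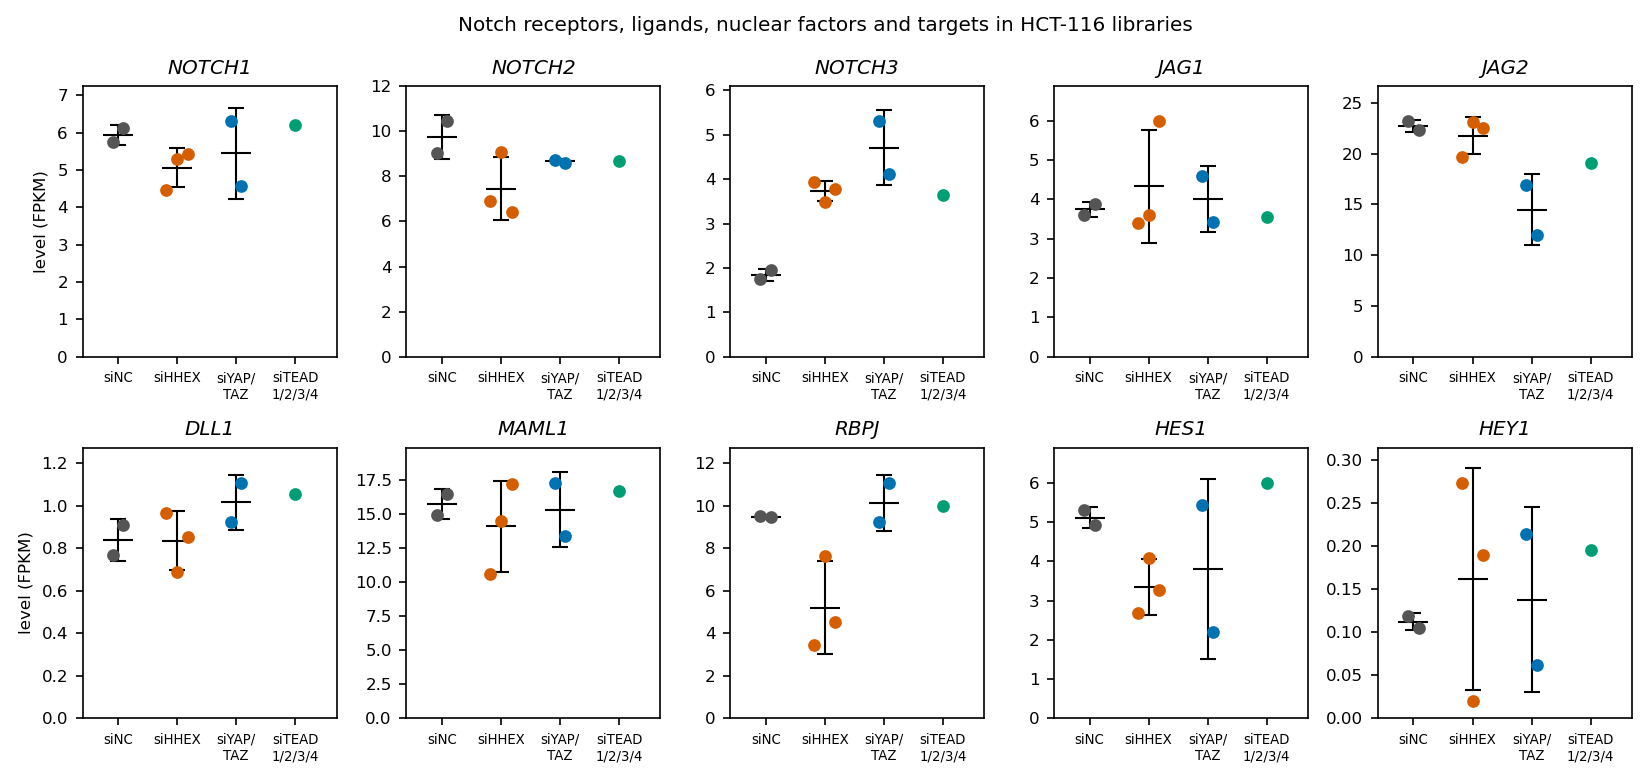
Level in FPKM of each of the 10 genes in each of the 8 libraries (points), with the group mean and SD (bars) where a group has more than 1 library; siTEAD1/2/3/4 is a single library. Each panel has its own linear axis from 0. *NOTCH3* is above both siNC libraries in all 6 knockdown libraries, *RBPJ* is below siNC in the 3 siHHEX libraries, and *JAG2* is lowest in the 2 siYAP/TAZ libraries. How common such patterns over all libraries are among the tested genes was not counted.

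Each knockdown was compared with siNC to ask how the loss of *HHEX*, of YAP and TAZ, or of the TEAD factors altered the expression programme, and siHHEX was compared directly with siYAP/TAZ. All libraries entered 1 limma fit on log2(FPKM + 1), with two-sided tests and p-values adjusted over the 10677 genes. A gene was called when its adjusted p was under 0.05. In siHHEX 2 of 9 tested members were called (22.2%), *NOTCH3* higher and *RBPJ* lower, where 32.9% of all tested genes were called, 16% higher and 16.9% lower. In siYAP/TAZ 2 of 9 were called, *NOTCH3* higher and *JAG2* lower, against 8.28% of all tested genes, 6.15% higher and 2.13% lower. In the direct comparison *JAG2* was called higher and *RBPJ* lower in siHHEX than in siYAP/TAZ, 2 of 9 against 39.3% of all tested genes, 13.5% higher and 25.9% lower. Each of these shares of members rests on 2 genes, and none was tested against the share of all genes. The study's own criterion asks for more than 2-fold with p below 0.05 before adjustment. On the log2(FPKM + 1) scale no member met it in these 3 comparisons, where 1.63%, 1.57% and 1.52% of all tested genes did, and *NOTCH3* came nearest in siYAP/TAZ with a difference of 0.998. This depends on the value added before the logarithm, since with 0.1 in place of 1 *NOTCH3* in siYAP/TAZ (1.30, limma adjusted p = 0.00841) and *RBPJ* between siHHEX and siYAP/TAZ (-1.02, limma adjusted p = 0.0205) met it. The share of all tested genes that met the study's criterion with 0.1 was not counted, so *NOTCH3* and *RBPJ* have no background there. The siHHEX and siYAP/TAZ contrasts use the same siNC libraries, so the 2 sets of differences are not independent of each other. Groups that did not overlap were common throughout the table. In siHHEX 1 member lay wholly above and 3 wholly below siNC, where 66.9% of all tested genes did not overlap, 33.1% above and 33.8% below. In siYAP/TAZ 2 lay above and 2 below, where 67.7% did not overlap, 42.9% above and 24.8% below. One of those above was *DLL1*, which passed the filter only through libraries in which it was high. Between siHHEX and siYAP/TAZ 1 lay above and 2 below, where 60.8% did not overlap, 23% above and 37.8% below.

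**Figure D2:**
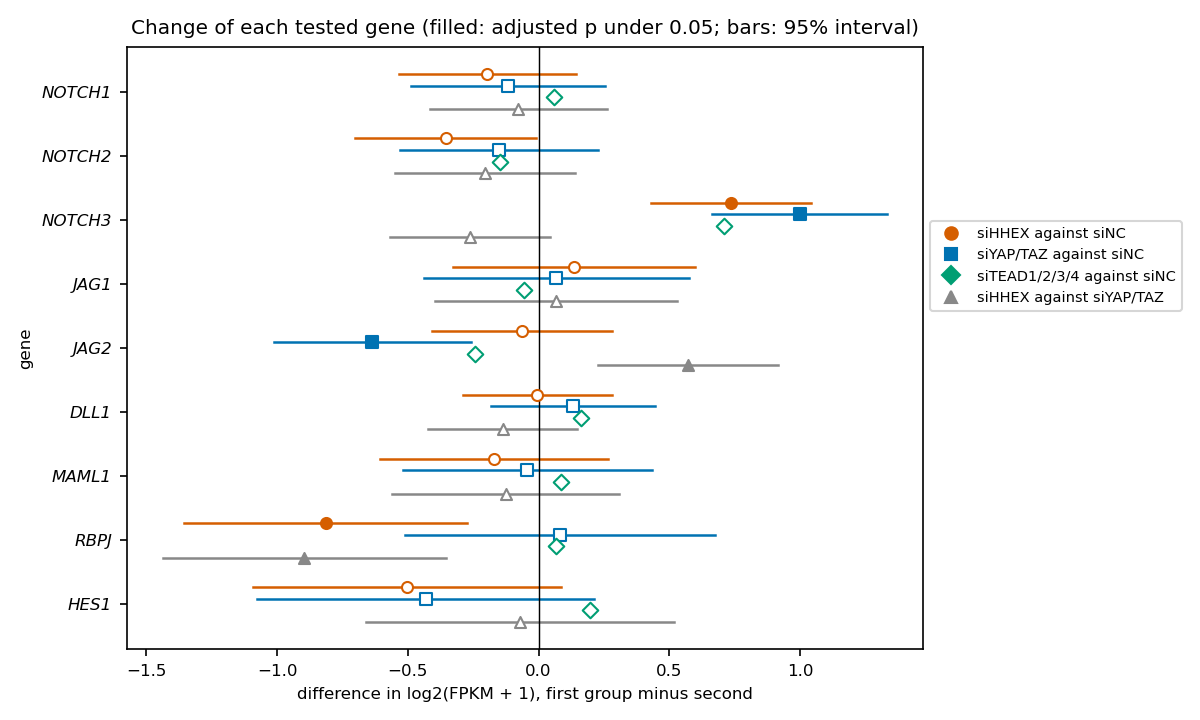
Difference in log2(FPKM + 1) of the 9 tested genes in the 4 comparisons, with 95% intervals for the 3 that were tested; filled symbols have a limma adjusted p under 0.05, and siTEAD1/2/3/4 has no interval because it is 1 library. *NOTCH3* lies to the right of 0 for all 3 knockdowns, *JAG2* is to the left for siYAP/TAZ, and *RBPJ* is to the left for siHHEX.

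Among the receptors *NOTCH3* rose in siHHEX and in siYAP/TAZ, while *NOTCH1* and *NOTCH2* were not called in any comparison. *NOTCH3* (GRCh38 chr19:15159038-15200995, minus strand, 33 exons) encodes a receptor best known from vascular mural cells. It was at 1.74 and 1.94 FPKM in siNC, at 3.94, 3.48 and 3.79 FPKM in siHHEX, at 5.30 and 4.11 FPKM in siYAP/TAZ and at 3.65 FPKM in siTEAD1/2/3/4. Every knockdown library was above both siNC libraries, and the group means were 203%, 255% and 198% of the siNC mean. The share of all tested genes with every knockdown library above siNC was not counted, and all groups share the same controls. In siHHEX the difference was 0.74 in log2(FPKM + 1) (SE 0.135, 95% interval 0.43 to 1.04, limma adjusted p = 0.00799). In siYAP/TAZ it was 0.998 (SE 0.148, 95% interval 0.66 to 1.33, limma adjusted p = 0.00945). *NOTCH3* was lower in siHHEX than in siYAP/TAZ by 0.26, a difference that was not called (95% interval -0.57 to 0.042, limma adjusted p = 0.145). The single siTEAD1/2/3/4 library differed from the siNC mean by 0.71, which made *NOTCH3* the only member past 1.5-fold there, where 6.33% of all tested genes were past it in either direction and 4.15% above it. The summed fibroblast and mural markers were also above siNC in every knockdown library, with sums of 1.78 and 1.34 FPKM in siNC, 2.05 to 3.00 FPKM in siHHEX, 3.17 and 5.59 FPKM in siYAP/TAZ and 2.50 FPKM in siTEAD1/2/3/4, and their part in the *NOTCH3* difference was not tested. Of these genes *PDGFRB*, *DCN* and *LUM* did not exceed 0.0793, 0.0825 and 0.160 FPKM in any library. *ACTA2* and *COL1A1*, which carried the sum, reached 2.79 and 2.04 FPKM in siYAP/TAZ 2. *COL1A2* and *COL3A1* were at 0.273 and 0.283 FPKM in siYAP/TAZ 2 and at 0.124 and 0.235 FPKM in siHHEX 3. In siNC they did not exceed 0.0173 and 0.0407 FPKM, and the remaining libraries stayed within the siNC range. *ACTA2* and *PDGFRB* were above both siNC libraries in every knockdown library, with *ACTA2* at 0.787 and 0.5096 FPKM in siNC and at 1.13, 1.81 and 1.01 FPKM in siHHEX. *COL1A1* was at 0.859, 0.647 and 1.37 FPKM in siHHEX, on both sides of its siNC values of 0.915 and 0.821 FPKM. These bulk values cannot tell a change in RNA per cell from a change in the number of cells that express the gene. The control level rests on 2 libraries, and *NOTCH3* was not called in either comparison once 1 of them was left out, although its difference stayed between 0.68 and 0.79 in siHHEX and between 0.95 and 1.05 in siYAP/TAZ. With the trend on GC content described below removed, the siHHEX difference was 0.45 and no longer called.

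*NOTCH1* (chr9:136494433-136546048, minus strand, 34 exons), the receptor with the widest role in epithelial and blood cell fate, was at 5.74 and 6.11 FPKM in siNC and at 4.46, 5.30 and 5.42 FPKM in siHHEX. All 3 siHHEX values were below siNC, but the difference of -0.20 was within the spread of the libraries (SE 0.150, limma adjusted p = 0.322). In siYAP/TAZ it was at 6.30 and 4.58 FPKM, on both sides of siNC, and in siTEAD1/2/3/4 at 6.21 FPKM. *NOTCH2* (chr1:119911553-120100779, minus strand, 34 exons), the most abundant receptor in these cells, was at 9.05 and 10.4 FPKM in siNC and at 6.89, 9.06 and 6.43 FPKM in siHHEX. The groups overlapped by siHHEX 2, and the difference of -0.35 was not called (SE 0.154, limma adjusted p = 0.0984). Without siHHEX 2 it was -0.49, with a limma adjusted p of 0.0146. The siYAP/TAZ libraries were close to each other at 8.74 and 8.59 FPKM and below both siNC values, and siTEAD1/2/3/4 was at 8.68 FPKM. *NOTCH2* has near-identical partial copies in the human genome (the *NOTCH2NL* genes), and how the counting divided reads between them is not given in the sources used here.

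Taken as shares of the summed receptor FPKM, which includes *NOTCH4* at 0.0548 to 0.123 FPKM, *NOTCH3* made up 10.5% ± 0.00578 (SD, n = 2) in siNC. Its share was 23.0% ± 3.25 (n = 3) in siHHEX, 24.8% ± 1.62 (n = 2) in siYAP/TAZ and 19.6% in siTEAD1/2/3/4. *NOTCH2* went from 55.4% ± 1.23 in siNC to 45.4% ± 4.83, 46.0% ± 4.69 and 46.6%, and remained the largest share in every library. The lowest *NOTCH3* share of a knockdown library, 19.4% in siHHEX 2, was still above both controls.

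**Figure D3:**
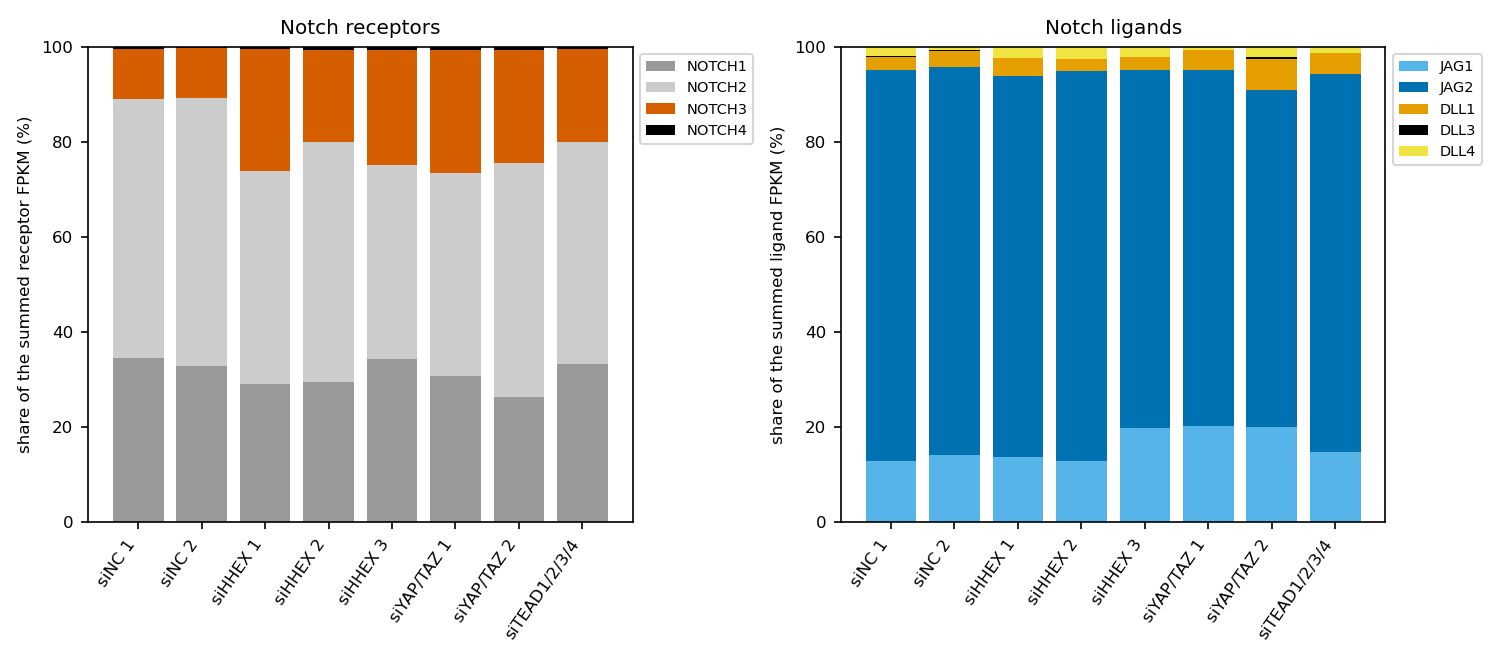
Share in percent of each Notch receptor in the summed FPKM of 4 receptor genes (left) and of each ligand in the summed FPKM of 5 ligand genes (right), one bar per library. The *NOTCH3* segment is about 10.5% in both siNC libraries and 19.4% to 25.9% in the 6 knockdown libraries, while *JAG2* fills most of every ligand bar and least in siYAP/TAZ 2.

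Among the ligands *JAG2* fell in siYAP/TAZ, and *JAG1* and *DLL1* were not called in any comparison. *JAG2* (chr14:105140982-105168824, minus strand, 26 exons) encodes one of the pair of Jagged ligands and was the most abundant member of the set in siNC. It was at 23.2 and 22.3 FPKM in siNC, at 19.7, 23.1 and 22.5 FPKM in siHHEX, at 16.9 and 12.04 FPKM in siYAP/TAZ and at 19.1 FPKM in siTEAD1/2/3/4. Both siYAP/TAZ libraries were below every other library, siHHEX overlapped siNC, and siTEAD1/2/3/4 lay below both siNC values. The share of all tested genes with siYAP/TAZ below every other library was not counted. The siYAP/TAZ mean was 63.7% of the siNC mean, a difference of -0.64 in log2(FPKM + 1) (SE 0.168, 95% interval -1.01 to -0.26, limma adjusted p = 0.0496). In siHHEX the difference from siNC was -0.064 (limma adjusted p = 0.758), and *JAG2* was higher in siHHEX than in siYAP/TAZ by 0.57 (SE 0.153, 95% interval 0.23 to 0.92, limma adjusted p = 0.0189). With the GC and length trend described below removed, this direct difference was 0.42 (limma adjusted p = 0.0806). With the replicate block described below it was 0.55 (limma adjusted p = 0.0508), and with both 0.45 (limma adjusted p = 0.136). It was not called in these cases. The siYAP/TAZ call stood close to the threshold and was lost in 7 of 14 alternatives. Without siYAP/TAZ 2 the difference from siNC was -0.41 (limma adjusted p = 0.261), and without siYAP/TAZ 1 it was -0.87. The call was also lost without siHHEX 1 (limma adjusted p = 0.0656) and without either siNC library, and the direct difference from siHHEX was 0.34 without siYAP/TAZ 2 (limma adjusted p = 0.149).

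*JAG1* (chr20:10637684-10673999, minus strand, 26 exons), the other Jagged ligand, was at 3.61 and 3.88 FPKM in siNC and between 3.39 and 4.60 FPKM in every knockdown library except siHHEX 3, which had 5.98 FPKM. This 1 library set the direction in siHHEX, where the difference was 0.14 with all libraries (SE 0.206, limma adjusted p = 0.619) and -0.076 without it. *DLL1* (chr6:170282206-170306565, minus strand, 11 exons), a Delta-like ligand of the intestinal secretory lineage, had low levels of 0.687 to 1.11 FPKM. It passed the filter through siYAP/TAZ 2 and siTEAD1/2/3/4 alone, and its differences of -0.0048 in siHHEX and 0.13 in siYAP/TAZ were within the spread. *FAM120B* overlaps *DLL1* on the opposite strand, and the use of strand in the counting is not given in the sources used here. Of the other ligands on the pathway list, *DLL4* was between 0.166 and 0.738 FPKM and *DLL3* did not exceed 0.0840 FPKM. The share of *JAG2* in the summed ligand FPKM was 82.0% ± 0.451 (SD, n = 2) in siNC, 79.1% ± 3.58 (n = 3) in siHHEX, 72.9% ± 2.78 (n = 2) in siYAP/TAZ and 79.5% in siTEAD1/2/3/4.

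Of the nuclear factors *RBPJ* fell in siHHEX and *MAML1* was not called. *RBPJ* (chr4:26163455-26435131, plus strand, 11 exons) encodes the DNA-binding protein on which the signals of all Notch receptors converge, and which represses the same targets with corepressors when no receptor fragment is bound. It was at 9.53 and 9.45 FPKM in siNC, at 3.44, 7.64 and 4.54 FPKM in siHHEX, at 9.21 and 11.1 FPKM in siYAP/TAZ and at 10.001 FPKM in siTEAD1/2/3/4. All 3 siHHEX libraries were below all 5 others, although siHHEX 2 was well above siHHEX 1 and siHHEX 3. The share of all tested genes with siHHEX below every other library was not counted. The mean over siHHEX was 54.9% of that over siNC, a difference of -0.81 in log2(FPKM + 1) (SE 0.240, 95% interval -1.35 to -0.27, limma adjusted p = 0.0313). Against siYAP/TAZ the difference was -0.90 (SE 0.240, 95% interval -1.44 to -0.36, limma adjusted p = 0.0190), while siYAP/TAZ differed from siNC by 0.082 (limma adjusted p = 0.871). The order of the siHHEX libraries in *RBPJ* was also their order in *YAP1*, which was at 5.77 FPKM in siHHEX 1, 6.93 FPKM in siHHEX 3 and 17.4 FPKM in siHHEX 2, and the part of *YAP1* in this was not tested. In the siYAP/TAZ libraries, where *YAP1* was at 6.90 and 8.39 FPKM, *RBPJ* lay on both sides of siNC. The siHHEX call was lost without siHHEX 1 (-0.60, limma adjusted p = 0.0787) and without siHHEX 3 (-0.76, limma adjusted p = 0.0755), as it was without either siNC library and with the GC trend removed (-0.32). The direct difference from siYAP/TAZ was -0.78 without siYAP/TAZ 2 (limma adjusted p = 0.125) and -0.30 with the GC trend removed (limma adjusted p = 0.313), and was not called in either case.

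*MAML1* (chr5:179732822-179777283, plus strand, 5 exons), a Mastermind-like coactivator of the complex, was at 14.95 and 16.5 FPKM in siNC and at 10.6, 14.5 and 17.2 FPKM in siHHEX. It was at 17.3 and 13.4 FPKM in siYAP/TAZ and at 16.7 FPKM in siTEAD1/2/3/4, and the knockdown libraries lay on both sides of siNC. The differences were -0.17 in siHHEX (limma adjusted p = 0.504) and -0.043 in siYAP/TAZ (limma adjusted p = 0.920). The other Mastermind-like genes on the pathway list, *MAML2* and *MAML3*, stayed under 1 FPKM in every library and were not tested. Without the filter *MAML2* was called higher in siYAP/TAZ, where it was at 0.346 and 0.428 FPKM next to 0.110 and 0.0470 FPKM in siNC.

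The target genes were not called. *HES1* (chr3:194136148-194138732, plus strand, 4 exons) encodes a transcriptional repressor and is a direct target of Notch in the intestine. It was at 5.30 and 4.92 FPKM in siNC, at 2.68, 4.08 and 3.27 FPKM in siHHEX, at 5.43 and 2.19 FPKM in siYAP/TAZ and at 5.998 FPKM in siTEAD1/2/3/4. All 3 siHHEX libraries were below siNC, the siYAP/TAZ libraries lay above and below it, and siTEAD1/2/3/4 was the highest of all. In siHHEX the difference was -0.50 (SE 0.262, 95% interval -1.09 to 0.084, limma adjusted p = 0.154). With only siHHEX and siNC in the fit the same difference had a limma adjusted p of 0.0453. In siYAP/TAZ the mean difference of -0.43 (limma adjusted p = 0.3605) stood for libraries that disagreed, since it was 0.074 without siYAP/TAZ 2 and -0.94 without siYAP/TAZ 1, the latter with a limma adjusted p of 0.0398. *HEY1*, a repressor related to *HES1*, was at 0.119 and 0.105 FPKM in siNC and at 0.273, 0.0205 and 0.190 FPKM in siHHEX. It was at 0.214 and 0.0616 FPKM in siYAP/TAZ and at 0.195 FPKM in siTEAD1/2/3/4, levels at which no comparison was made.

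Promoter sequences were examined because *HES1* is the textbook gene bound by *RBPJ*, whose core motif was searched as TGGGAA on either strand (TTCCCA on the other). RefSeq windows of 250 bases before to 50 bases after the start site (GRCh38.p14) were at hand for 8 of the 10 genes. *HES1* carried 2 matches within 30 bases on its own strand, whose first letters are 14 bases apart. The stretch printed below (chr3:194136059-194136088) runs from position -89 to -60 relative to the start site. One of the 5 windows of *RBPJ* itself carried 2 matches, at chr4:26319619-26319648 and chr4:26319662-26319691 (plus strand). The matches are in capitals.
HES1: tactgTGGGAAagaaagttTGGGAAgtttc
RBPJ, match 115 bases before the start: ggtttaggaaatTTCCCAcggccgtgttgt
RBPJ, match 72 bases before the start: agtggaaggcggTGGGAAggaggtgtagcg
The core was present at least once in 24.0% of 35116 promoter windows of the same length, so a match describes the sequence and does not by itself show binding. The share of windows with 2 matches, or of genes with a match in any of 5 windows, was not counted. The windows of *NOTCH1*, *NOTCH2*, *NOTCH3*, *JAG1*, *JAG2* and *MAML1* did not hold these letters. The core motif of the TEAD factors, searched as GGAATG on either strand (CATTCC on the other), was in 14.03% of the windows and in none of those of the 8 genes.

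The siHHEX differences of genes in general rose with the GC content of their transcripts, which bears on the values of *RBPJ* and *NOTCH3*. Across 10617 tested genes, which are not independent replicates, Spearman's rho between GC content and the siHHEX difference was 0.730. Genes with under 40% GC had a median siHHEX difference of -0.45 (1762 genes), and genes with 60% GC or more had one of 0.38 (1817 genes). In siYAP/TAZ the same medians were 0.088 and 0.092, and rho was 0.000807. In the single siTEAD1/2/3/4 library they were -0.044 and 0.195, with a rho of 0.298. Between siHHEX and siYAP/TAZ they were -0.55 and 0.30, with a rho of 0.707. *RBPJ* has 37.2% GC, at percentile 5.83 of the tested genes, and its fall in siHHEX was in the direction of this trend. *NOTCH3* has 63.1% GC and a siHHEX difference of 0.74, *NOTCH1* has 63.5% and -0.20, and *JAG2* has 64.1% and -0.064. The part of the trend in the differences of these genes and of *RBPJ* was not tested. When a smooth trend on GC content and transcript length was removed from each library, *NOTCH3* differed by 0.45 in siHHEX (limma adjusted p = 0.0546) and by 0.82 in siYAP/TAZ (limma adjusted p = 0.0107). *RBPJ* then differed by -0.32 in siHHEX (limma adjusted p = 0.302), and *JAG2* by -0.79 in siYAP/TAZ (limma adjusted p = 0.0158). *NOTCH1* was called lower in siHHEX only after this correction, at -0.49 (limma adjusted p = 0.0487), and *NOTCH3* in siTEAD1/2/3/4 came to 0.44, under 1.5-fold. *HES1*, close to the median of all tested genes in GC content with 49.97%, differed by -0.62 in siHHEX after it (limma adjusted p = 0.185). The trend was also uneven among replicates. Of the variance of the differences from the mean of all libraries, GC content and length accounted for 46.1%, 16.2% and 59.8% in siHHEX 1, siHHEX 2 and siHHEX 3. The same share was 29.4% and 24.0% in siNC, 25.8% and 19.3% in siYAP/TAZ and 11.7% in siTEAD1/2/3/4. Whether the trend arose in the cells or in the libraries was not tested.

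**Figure D4:**
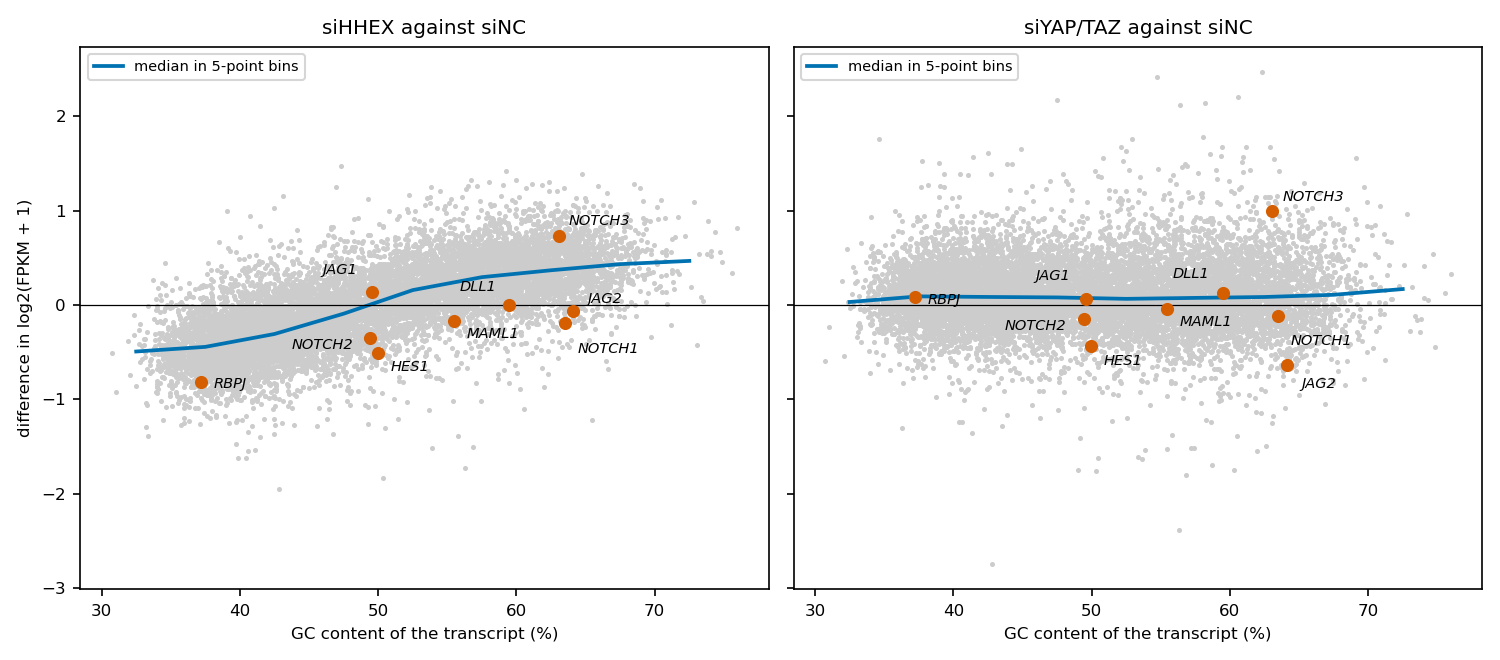
Difference in log2(FPKM + 1) from siNC against the GC content of the transcript in percent for siHHEX (left) and siYAP/TAZ (right), with one grey point per tested gene, the median in bins of 5 percentage points (line) and the 9 tested members (orange). The line climbs from -0.49 to 0.47 in siHHEX and is nearly flat in siYAP/TAZ. In siHHEX *RBPJ* lies below the line at low GC content, and *NOTCH3* lies above it at high GC content.

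The members were then set beside a list of 73 genes of the Notch pathway arranged by role, which includes the 10 members and of which 53 were tested. In siHHEX 7 were higher and 11 lower, or 34% of those tested, next to 32.9% of all genes, and the median difference of the list was -0.0048 next to -0.0055 over all tested genes. In siYAP/TAZ 5 were higher and 2 lower, 13.2% next to 8.28% of all genes, and the medians were 0.063 and 0.082. The share called in siHHEX was thus near that of genes in general, the 7 calls in siYAP/TAZ are few, and neither difference from the background was tested. Without the members 36.4% of 44 tested genes were called in siHHEX and 11.4% in siYAP/TAZ. Between siHHEX and siYAP/TAZ 8 genes of the whole list were higher and 17 lower, 47.2% next to 39.3% of all genes. The medians were -0.14 and -0.13. With the GC and length trend removed, only *SNW1* (-0.38), *HES6* (0.59) and *MYC* (0.56) of these were still called, where 8.88% of all genes were. *APH1B* was among the 5 higher in siYAP/TAZ than in siNC and the 17 lower in siHHEX than in siYAP/TAZ. It passed the filter only through the siYAP/TAZ libraries in which it was high.

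Before the receptor is cut, ubiquitin ligases act on the ligand in the signal-sending cell. Of these, *MIB2* (0.51) and *NEURL1B* (0.50) rose and *MIB1* (-0.58) fell in siHHEX, all with limma adjusted p between 0.0182 and 0.0226. With the GC and length trend removed they were at 0.15, 0.28 and -0.13, and none was called. *NEURL1B*, a Neuralized-like ligase, was at 1.96 and 2.38 FPKM in siNC, at 3.93, 3.30 and 3.28 FPKM in siHHEX, at 4.67 and 5.34 FPKM in siYAP/TAZ and at 4.29 FPKM in siTEAD1/2/3/4. As with *NOTCH3*, every knockdown library was above both siNC libraries, a pattern whose share among all tested genes was not counted. The siYAP/TAZ difference of *NEURL1B* was 0.92 (limma adjusted p = 0.0111). Of the genes of receptor maturation only *POGLUT1*, a glucosyltransferase of the receptor, was called, lower in siHHEX at -0.48 (limma adjusted p = 0.0360) and at -0.094 with the trend removed.

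Of 8 genes of the cleavage step, 2 rose and 2 fell in siHHEX. The gamma-secretase subunits *APH1A* (0.60) and *PSENEN* (0.58) were higher and the sheddase *ADAM10* (-0.66) was lower, with limma adjusted p of 0.00820, 0.0228 and 0.00990. With the GC and length trend removed they were at 0.33, 0.50 and -0.17, and none was called. In siYAP/TAZ only *APH1B* was called in this role. It was at 0.323 and 0.414 FPKM in siNC and at 1.08 and 1.497 FPKM in siYAP/TAZ, a difference of 0.74 (limma adjusted p = 0.0391), and every other library was under the 1 FPKM of the filter. A gene that passed only through the group in which it was high had to differ, so this call is given as a description. Among the genes of receptor trafficking and degradation the ubiquitin ligases *ITCH* (-0.76) and *DTX3L* (-0.43) fell in siHHEX and none was called in siYAP/TAZ. With the trend removed they were at -0.30 and -0.12 and were not called. Beside *RBPJ*, *SNW1*, which encodes a cofactor of the nuclear complex, fell in siHHEX by 0.49 (limma adjusted p = 0.0138) and was at -0.32 with the trend removed, where it was not called. Of 8 corepressor genes, *SPEN* (-0.67) and *CTBP2* (-0.45) fell in siHHEX, whereas *CIR1* (0.79) and *HDAC1* (0.57) rose in siYAP/TAZ. With the trend removed *SPEN* was at -0.72 and still called, and *CTBP2* was at -0.26 and was not.

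**Figure D5:**
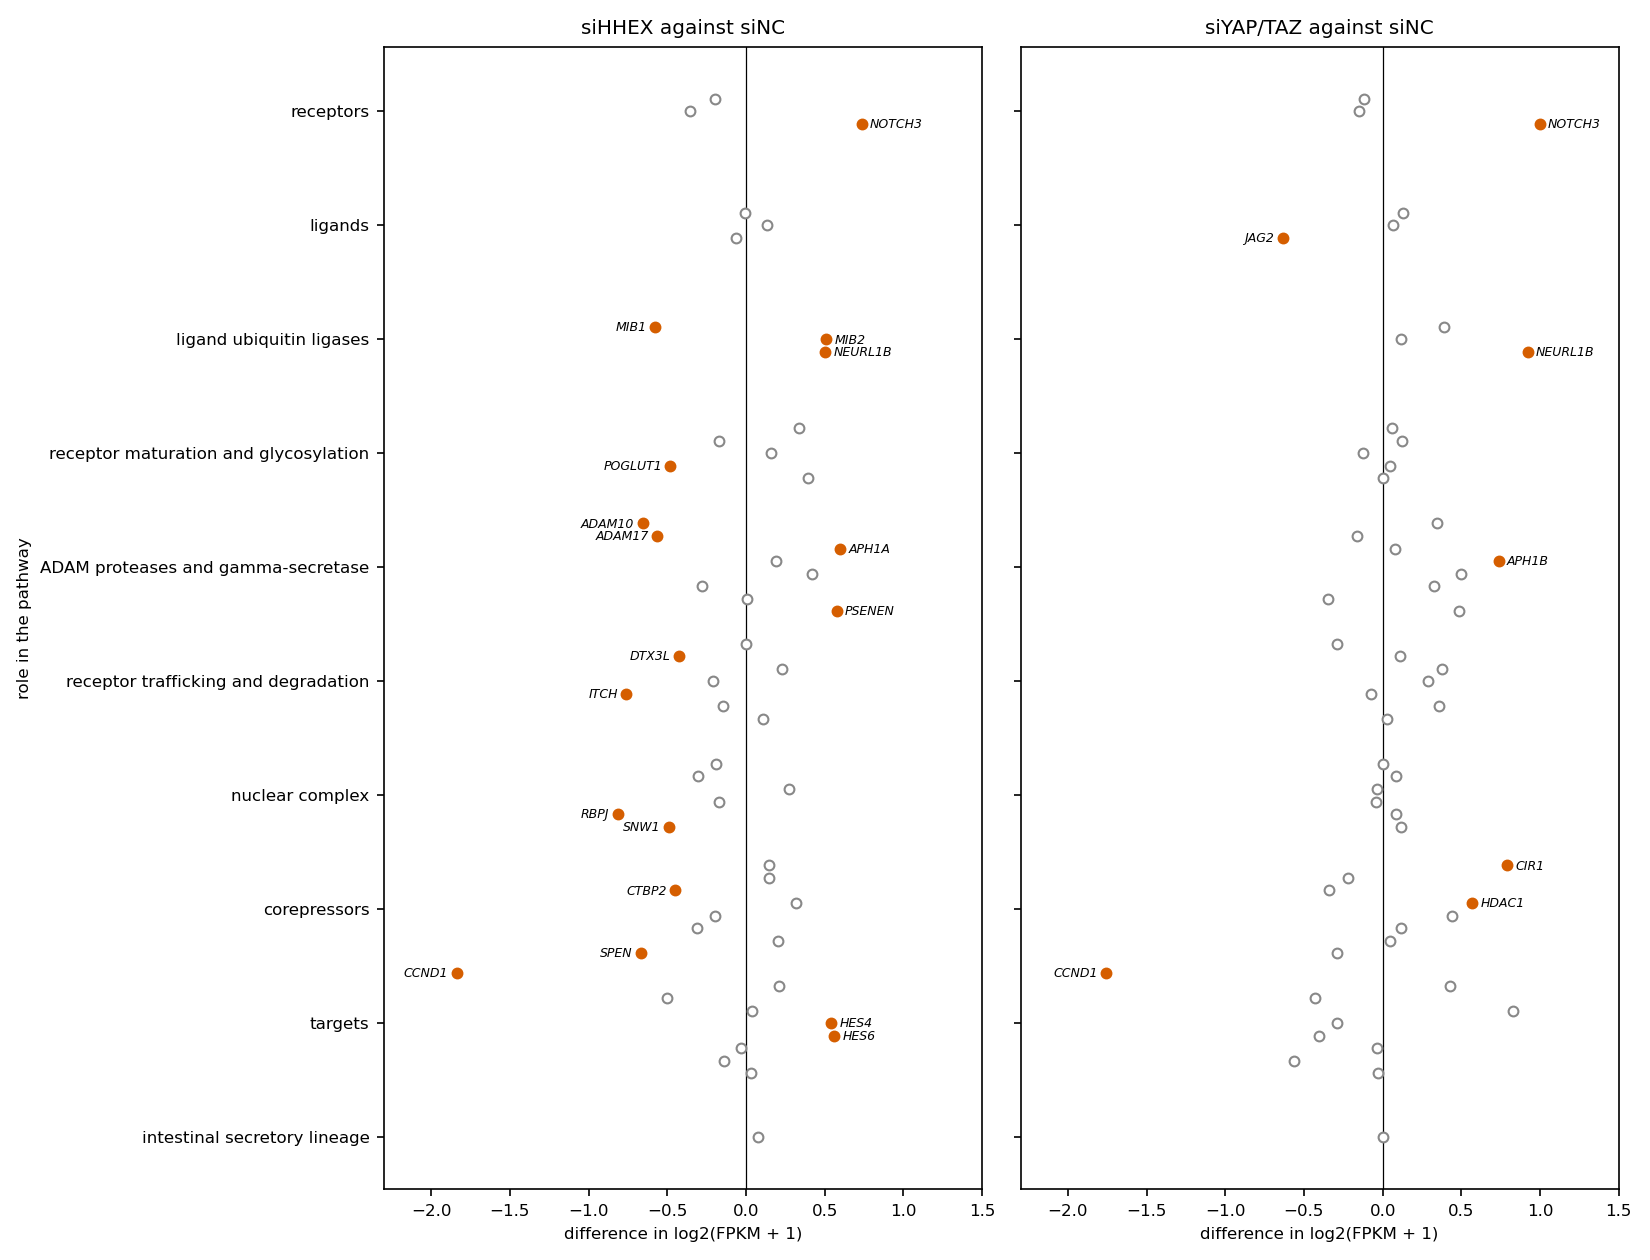
Difference in log2(FPKM + 1) from siNC of the 53 tested genes of the pathway list, by role, for siHHEX (left) and siYAP/TAZ (right); orange points have a limma adjusted p under 0.05 and are named. In siHHEX 7 named genes lie to the right and 11 to the left of 0, in siYAP/TAZ 5 and 2, and *CCND1* is the farthest left in both.

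The target genes on the list did not move together. *CCND1*, the gene of cyclin D1, which is also a target of other pathways, was at 419.8 and 441.0 FPKM in siNC, at 119, 147 and 97.6 FPKM in siHHEX, at 159 and 101 FPKM in siYAP/TAZ and at 174 FPKM in siTEAD1/2/3/4. It fell by 1.84 in siHHEX (limma adjusted p = 0.00346) and by 1.76 in siYAP/TAZ (limma adjusted p = 0.00612). *HES4* (0.54) and *HES6* (0.56) rose in siHHEX with limma adjusted p of 0.0487 and 0.0420, and with the GC and length trend removed they were at -0.037 and 0.067. Of the 18 siHHEX calls, *CCND1* and *SPEN* were still called after that correction, and of the 7 siYAP/TAZ calls 6 were, all but *APH1B*. Over all genes the same correction took the share called from 32.9% to 6.75% in siHHEX and from 8.28% to 11.4% in siYAP/TAZ. Genes of the intestinal secretory lineage, which Notch holds back, were near the floor, with *NEUROG3*, *TFF3* and *CHGA* listed at 0 in every library and *ATOH1*, *MUC2* and *SPDEF* at no more than 0.255 FPKM. *GFI1* alone of the 7 was tested, and it was not called in either knockdown.

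To name genes whose levels followed those of the members, Pearson's r was taken over the 8 libraries on log2(FPKM + 1), as a description among genes that share the same libraries and the same differences in GC trend. *KAZALD1* (0.985) and *APOBEC3C* (0.976) were closest to *NOTCH3*. *CNOT8* (0.993) and *CUL3* (0.991) were closest to *RBPJ*, and *YRDC* (0.992) and *ZNF296* (0.981) to *JAG2*. For *HES1* the closest were *SERINC3* (0.970) and *DDAH1* (0.959). *CSNK2A1* (0.979) and *SEC61G* (0.979) were closest to *NOTCH2*, *SMAGP* (0.960) and *ADAT3* (0.957) to *JAG1*, and *TNFRSF10B* (0.952) and *FOSL2* (0.923) to *MAML1*. *NOTCH1*, *DLL1* and *HEY1* spanned less than 0.5 over the libraries and were not compared in this way.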

How the data were processed

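RNA of 8 HCT-116 libraries was harvested with Trizol and sequenced on an Illumina HiSeq instrument. The authors deposited 1 FPKM value per gene and library; per the labels' processing notes the tools were Trimmomatic 0.36, HISAT2 2.0.5, Cufflinks 2.2.1 and HTSeq 0.9.1, with no order given. The genome build, annotation and strand setting of the RNA-seq are not given in the sources used here. The differential test that the authors name, DESeq, needs counts; the files hold FPKM, so limma 3.58.1 (R 4.3.3, lmFit and eBayes with trend) was run on log2(FPKM + 1), which understates the change of low genes. Groups came from the labels, and all 4 groups entered 1 fit without covariates.

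The filter asked for 1 FPKM or more in at least 2 libraries (10677 of 20030 rows; 9353 left out), and p-values were adjusted by Benjamini-Hochberg over all tested genes. No test was made on siTEAD1/2/3/4, which is 1 library. GC content and length were taken from GENCODE 44 (GRCh38), matched by symbol or, failing that, by synonym, with both values found for 99.4% of tested genes; the coordinates came from the same annotation. Promoter windows were from RefSeq (GRCh38.p14).

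All members and knockdown targets are named. From the pathway list, the up to 3 called genes of each role with the smallest p are named in siHHEX and in siYAP/TAZ, and genes below the filter may be named with values. For likeness, the 2 tested genes with the highest r are named for members spanning at least 0.5. The members, lists and marker genes were chosen with earlier results of these data known.

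Alternatives were a pseudocount of 0.1, no filter, only the groups compared, a replicate block, median scaling, a correction for GC content and length (natural splines with 4 degrees of freedom each) alone or with the block, another call rule and leaving out each library. The fit was tested on simulated data.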

Additional observations from a re-analysis of the deposited data

How the results depend on the processing

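Over the members' differences, 308 of the values under an alternative kept their direction and their side of the threshold, 28 lost a call, 7 gained one and 35 changed sign. The difference itself could not change without a filter, with only the groups compared or without a library outside the comparison. For *NOTCH1* in siHHEX it was -0.20 in each of these settings, and only the adjusted p moved. A difference not called in the main fit also had no call to lose. The 308 therefore does not measure how robust the differences were. None of the 35 was called; the largest was 0.43 in size. The library medians differed by -0.071 in siHHEX, 0.11 in siYAP/TAZ, -0.18 between them and 0.062 in siTEAD1/2/3/4, and median scaling removed these shifts.

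Counts of called members (2 in each tested comparison) became as follows. Without a filter 1 was called in siHHEX, 1 in siYAP/TAZ and 1 between them, where 11.7%, 1.97% and 20.7% of all genes were; the cause was not tested. With the correction for GC content and length 1 was called in siHHEX and 0 between them, where 6.75% and 8.88% of all genes were, and 0 past 1.5-fold in siTEAD1/2/3/4. A pseudocount of 0.1 left 1 in siYAP/TAZ (7.79% of all genes). The study's criterion, here and below on log2(FPKM + 1), left 0 in each, and 2-fold in place of 1.5-fold left 0 in siTEAD1/2/3/4. For siTEAD1/2/3/4 the share of all genes past the fold is given only for the main setting (6.33%). Called pathway genes (18 in siHHEX, 7 in siYAP/TAZ) were 7 and 4 without a filter, 1 and 1 by the study's criterion, 3 in siHHEX after the correction and 11 in siYAP/TAZ with only the groups compared (16.5% of all genes); the shares of all genes without a filter and after the correction are those just given. Leaving out a library gave 0 to 3 members in siHHEX, in siYAP/TAZ and between them, 1 in siTEAD1/2/3/4, and 1 to 23 and 0 to 9 pathway genes, while the share of all genes called ran from 0.178% to 45.3% in siHHEX (the highest without siHHEX 2), from 0.140% to 12.3% in siYAP/TAZ and from 9.61% to 48.3% between them. Without siNC 1 or siNC 2 the whole table held 19 or 27 called genes in siHHEX and 22 or 15 in siYAP/TAZ, with the lone siNC library assumed to vary like the other groups.

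Same-numbered libraries did not deviate together (r between -0.070 and 0.022), so the numbers were not taken to pair them. The replicate block, under which 19.3%, 9.66% and 27.5% of all genes were called in siHHEX, in siYAP/TAZ and between them, left 9 pathway genes in siHHEX, 1 member in siYAP/TAZ (*JAG2* had a limma adjusted p of 0.0588) and 1 between them; with the correction as well it left 0 members and 1 pathway gene in siHHEX and 0 members between them, where 1.55% and 1.92% of all genes were called.

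The sign changes fell as follows, with leaving out a library given as the range. In siHHEX, *JAG1* was -0.076 with the block, -0.025 with block and correction and -0.076 to 0.26 over libraries; *JAG2* 0.0069 with median scaling and -0.11 to 0.0040; *DLL1* 0.066 with median scaling and -0.059 to 0.054; and *MAML1* -0.32 to 0.0094. In siYAP/TAZ, *NOTCH1* was -0.31 to 0.076; *JAG1* -0.037 with median scaling, -0.045 with the correction, alone or with the block, and -0.10 to 0.24; *HES1* -0.94 to 0.074; *MAML1* -0.22 to 0.13; and *RBPJ* -0.023 with median scaling, -0.018 with the correction, alone or with the block, and -0.039 to 0.20. Between them, *NOTCH1* was 0.098 with median scaling and -0.27 to 0.12; *NOTCH2* 0.025 with the correction and 0.10 with the block too; *JAG1* -0.14 with the block and -0.14 to 0.24; *DLL1* 0.039 with median scaling; *HES1* 0.10 with median scaling and -0.58 to 0.43; and *MAML1* 0.050 with median scaling and -0.30 to 0.053. The cause of these changes was not tested. Depth in reads was unknown, which leaves the error of *HEY1* and *DLL1* at their low levels without a counting interval.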

Other observations

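The transcripts of the 10 genes differed widely in base composition, from *RBPJ* at 37.2% GC to *JAG2* at 64.1%, with a median of 49.1% over the tested genes. *NOTCH1*, *NOTCH3* and *JAG2* were all above percentile 91 of the tested genes in GC content.

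Outside the pathway comparisons, *TEAD2* and *TEAD1* moved in opposite directions in siHHEX. *TEAD2*, a DNA-binding partner of YAP, was at 4.10 and 3.47 FPKM in siNC and at 6.495, 8.02 and 7.18 FPKM in siHHEX (difference 0.78, limma adjusted p = 0.00709). *TEAD1* was at 18.3 and 19.0 FPKM in siNC and at 6.99, 10.2 and 5.30 FPKM in siHHEX (difference -1.25, limma adjusted p = 0.00641). Their values with the GC and length trend removed are not given here, and the part of that trend in these differences was not tested.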
